A study of Mus musculus with 4 samples.

Results

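The nuclear genes of the mitochondrial respiratory chain and ATP synthase were described in single cells of mouse cortex. Members were the rows of the deposited gene tables whose symbol starts with Nduf, Uqcr, Atp5 or Cox4 to Cox8, together with *Sdha*, *Sdhb*, *Sdhc*, *Sdhd*, *Cycs* and *Cyc1*. The rule found 101 rows, of which 7 pseudogene rows were left out, so 94 of the 27487 genes in the 4 tables were kept as members. By complex these were 44 genes of complex I, 4 of complex II, 9 of complex III, 19 of complex IV, 17 of complex V (ATP synthase) and *Cycs* for cytochrome c. The rule uses names only, and it also takes in genes whose products are not subunits. These are 8 assembly factors of complex I (*Ndufaf1* to *Ndufaf8*) and 3 assembly or accessory genes (*Atp5s*, *Atp5sl*, *Cox7a2l*).

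The cells came from the cortex of Tg2576 mice (B6;SJL-Tg(APPSWE)2576Kha), which carry a human amyloid precursor protein gene with the Swedish mutation under the hamster prion protein promoter. Heterozygous transgenic mice (TG) and wildtype littermates (WT) of both sexes were compared at 24 weeks of age. Cells of 9 mice were pooled for each sex and genotype, which gave 4 Drop-seq libraries named female WT, female TG, male WT and male TG. Because each group is 1 library, a difference between 2 libraries cannot be told apart from a difference in how those libraries were made. The intervals given for a single library or for a ratio of 2 libraries are exact 95% intervals and cover counting error only.

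After filtering, 4835 cells with 6603050 UMIs (unique molecular identifiers, 1 per captured mRNA) remained. The libraries held 1010 to 1532 cells with medians of 909.0 to 1331.5 UMIs per cell. *Xist* and Y-linked transcripts matched the labelled sex of every library. Mitochondrial transcripts, mostly ribosomal RNA, took 9.27% and 9.92% of the UMIs in the female WT and female TG libraries, and 6.89% and 5.00% in the male WT and male TG libraries. The libraries shared 20 cell barcodes among kept cells over 6 pairs of libraries. Cells were clustered without the 94 members and named from marker lists. Microglia (1861 cells), astrocytes (921), oligodendrocytes (353), endothelial cells (962) and mural cells (163) had at least 20 cells in every library and were tested. Choroid plexus cells (109), oligodendrocyte precursor cells (OPC, 102), macrophages (107) and neurons (206) were described only. Microglia were made of 2 clusters, of 1070 and 791 cells, and the larger was led by immune genes (*Il1a*, *Tnf*, *Il1b*). The neuron cluster was led by genes of immature interneurons (*Dlx1*, *Dcx*), and the macrophage cluster by genes of neutrophils and ependymal cells beside macrophage genes. Cells dissociated from adult cortex thus gave mainly glia and vessel cells.

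The respiratory chain sits in the inner mitochondrial membrane. Complexes I and II pass electrons from NADH and succinate to ubiquinone, complex III passes them to cytochrome c, and complex IV hands them to oxygen. Complexes I, III and IV pump protons, and complex V uses the proton gradient to make ATP. Complexes I, III, IV and V mix subunits made from nuclear genes with subunits made from mitochondrial DNA, so both genomes have to be expressed for assembly, whereas complex II is wholly nuclear. Several complex IV subunits exist as alternative isoforms that replace a common one in some tissues, such as striated muscle or oxygen-sensing cells. In brain, astrocytes are known for glycolysis and lactate release, yet they also hold mitochondria throughout their processes.

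Promoters are shown for pairs of isoforms that the data separated and for the members at opposite ends of the comparison of microglia with astrocytes. RefSeq promoters (build GRCm38.p6, 250 bases before to 50 after a start) were matched by symbol for 75 of the 94 members. For a gene with several promoters the highest value was taken. The members then had a median of 20.0 CpG dinucleotides, against 8.0 over all 27025 genes with a promoter in the same source, and a median GC content of 58.7% against 53.3%. Motifs were searched on both strands, and a gene was counted if any of its promoters held a match. The motif of NRF1, nuclear respiratory factor 1, was found for 25.3% of the 75 members and 5.19% of all genes. The ETS motif CCGGAAG was in 24.0% and 9.93%, the YY1 motif GATGGCG in 17.3% and 4.04%, and the ERR motif AAGGTCA in 10.7% and 5.38%. The SP1 motif GGGCGG (45.3% and 38.2%), CCAAT (45.3% and 41.1%) and the HIF core ACGTG (24.0% and 21.8%) were closer to their share over all genes. TATAAA was in 9.33% of members and 15.7% of all. These are matches of letters, not sites of binding, and the CpG content of the 2 groups differs as given above. Each sequence runs 5′ to 3′ on the gene's strand, and capitals mark NRF1, ETS, YY1, SP1 or TATAAA matches in either orientation.
Cox8a (chr19:7217567-7217866, - strand): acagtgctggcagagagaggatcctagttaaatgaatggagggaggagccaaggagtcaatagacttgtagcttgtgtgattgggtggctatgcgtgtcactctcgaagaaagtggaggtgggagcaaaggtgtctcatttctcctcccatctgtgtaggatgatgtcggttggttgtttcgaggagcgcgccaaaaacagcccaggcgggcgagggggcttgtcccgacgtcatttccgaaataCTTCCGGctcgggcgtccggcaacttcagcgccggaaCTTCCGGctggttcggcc
Cox8b (chr7:140900397-140900696, - strand): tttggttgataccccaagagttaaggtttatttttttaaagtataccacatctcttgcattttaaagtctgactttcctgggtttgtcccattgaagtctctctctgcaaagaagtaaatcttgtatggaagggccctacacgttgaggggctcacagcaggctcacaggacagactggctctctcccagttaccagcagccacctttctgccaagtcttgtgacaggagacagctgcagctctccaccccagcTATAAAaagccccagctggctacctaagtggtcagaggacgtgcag
Cox7a2 (chr9:79759804-79760103, - strand): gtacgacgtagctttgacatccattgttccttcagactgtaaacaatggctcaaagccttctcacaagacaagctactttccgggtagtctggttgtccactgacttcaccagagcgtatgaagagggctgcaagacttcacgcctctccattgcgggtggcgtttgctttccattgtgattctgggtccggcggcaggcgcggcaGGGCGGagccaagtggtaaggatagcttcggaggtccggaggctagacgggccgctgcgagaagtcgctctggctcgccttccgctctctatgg
Cox7a1 (chr7:30183921-30184220, + strand): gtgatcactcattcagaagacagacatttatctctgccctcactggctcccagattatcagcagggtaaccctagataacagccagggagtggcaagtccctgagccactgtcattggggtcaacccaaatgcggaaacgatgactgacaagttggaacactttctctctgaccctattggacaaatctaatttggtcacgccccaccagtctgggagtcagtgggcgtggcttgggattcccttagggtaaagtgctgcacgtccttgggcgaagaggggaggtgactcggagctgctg
Cox7a2l (chr17:83514284-83514583, - strand): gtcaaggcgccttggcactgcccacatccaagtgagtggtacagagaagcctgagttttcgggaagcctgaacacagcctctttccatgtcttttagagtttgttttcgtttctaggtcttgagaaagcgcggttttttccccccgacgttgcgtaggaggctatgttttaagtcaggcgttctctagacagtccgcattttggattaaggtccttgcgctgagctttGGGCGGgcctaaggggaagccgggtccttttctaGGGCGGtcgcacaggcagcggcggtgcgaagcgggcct
Ndufs5 (chr4:123718137-123718436, - strand): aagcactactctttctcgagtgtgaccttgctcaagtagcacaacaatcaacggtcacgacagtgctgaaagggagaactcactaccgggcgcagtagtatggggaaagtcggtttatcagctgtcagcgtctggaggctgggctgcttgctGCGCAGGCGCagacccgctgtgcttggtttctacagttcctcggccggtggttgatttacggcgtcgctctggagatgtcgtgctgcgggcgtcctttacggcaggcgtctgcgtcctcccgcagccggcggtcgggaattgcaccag
The promoter of the common isoform *Cox8a* holds 19 CpG and 2 ETS matches, whereas that of its alternative *Cox8b* holds 2 CpG, TATAAA and no match to the other 4 marked motifs. *Cox7a2* holds 20 CpG and *Cox7a1* holds 7. *Cox7a2l* holds 2 SP1 matches and *Ndufs5* an NRF1 match.

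Over all kept cells the 94 members gave 87452 UMIs, or 1.32% of the total. Complex I gave 38.2% of the members' UMIs, complex IV 25.7%, complex V 22.8%, complex III 10.4%, complex II 2.74% and cytochrome c 0.158%. Drop-seq counts the 3′ end of each transcript once, so levels of different genes are given as CPM (UMIs scaled to a total of 1000000) without division by length. The most abundant member was *Cox4i1*, a regulatory subunit of complex IV. It had 396, 383, 606 and 692 CPM in the female WT, female TG, male WT and male TG libraries, so both male libraries were above both female ones. *Cox6c*, a small complex IV subunit, had 324, 303, 473 and 503 in the same order. In complex V, *Atp5j*, the coupling factor of the stalk, was at 327 and *Atp5c1*, the subunit that turns inside the enzyme, at 293 CPM over all libraries. In complex I the 2 highest were the accessory subunits *Ndufa13* (238) and *Ndufc2* (236), and in complex III *Uqcrq* (224) and the hinge protein *Uqcrh* (216). Complex II was led by its iron-sulfur subunit *Sdhb* (137) and the membrane anchor *Sdhc* (85.4). *Uqcrh* may share reads with 2 pseudogene copies that have counts of their own, so its level is uncertain. *Cycs*, the mobile electron carrier, was low at 20.9 CPM. The 7 alternative isoforms lay between 1.06 (*Cox7b2*) and 20.7 CPM over all cells.

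Choroid plexus cells, which secrete cerebrospinal fluid, stood above all other types. Their summed member level was 47744, 41288, 49192 and 48478 CPM in the female WT, female TG, male WT and male TG libraries, from 12 to 42 cells per library. Astrocytes followed with 15955, 16831, 20926 and 23233. Mural cells, the smooth muscle cells and pericytes of vessels, had 11709, 15148, 17278 and 19453. Astrocytes were above mural cells within each of the 4 libraries, but the ranges over libraries overlapped. Endothelial cells had 10514, 12745, 13446 and 16331 CPM, and oligodendrocytes 10975, 12386, 13632 and 16648, so these neighbours did not differ beyond their spread. Microglia were lowest with 5830, 6718, 7338 and 7966, below every library of astrocytes, mural cells, endothelial cells and oligodendrocytes. Neurons (9335 to 17127), macrophages (7890 to 16552) and OPC (7230 to 15061) spread widely over libraries of 8 to 74 cells. In cells of a given type, fewer mitochondria and less RNA per mitochondrion cannot be told apart here.

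**Figure D1:**
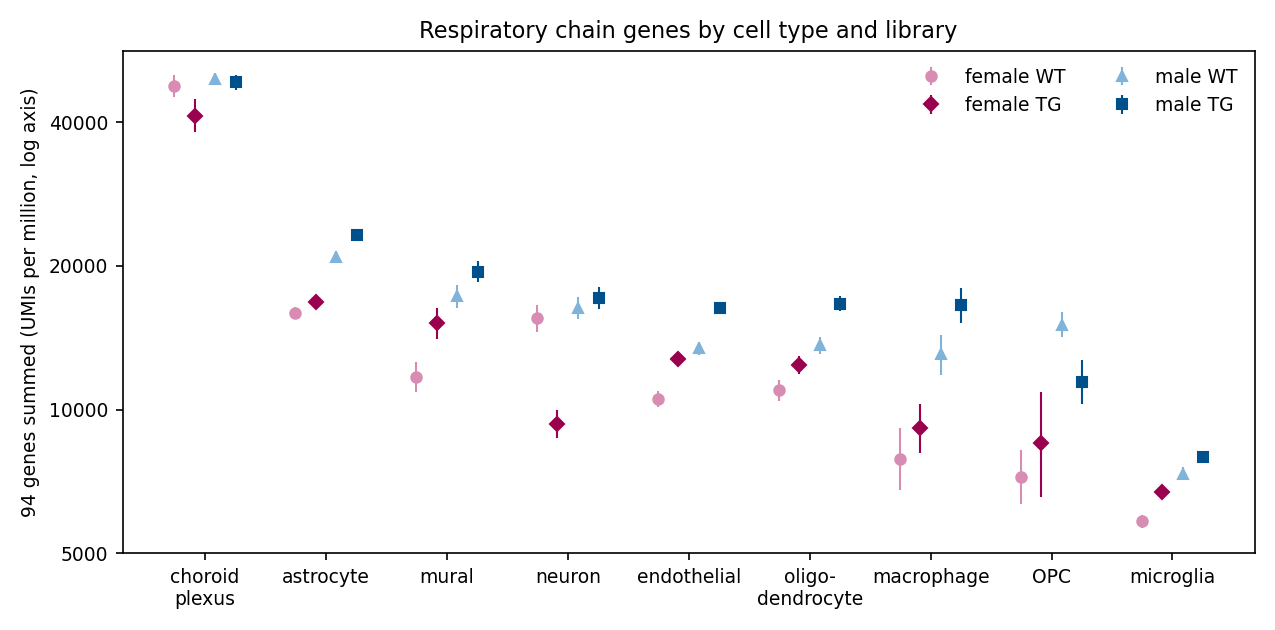
Summed level of the 94 members (CPM, log axis) by cell type, 1 point per library, with exact 95% Poisson intervals. Choroid plexus cells lie at or above 41288 in every library and microglia at or below 7966. In astrocytes, mural cells, endothelial cells, oligodendrocytes and microglia the order is female WT, female TG, male WT, male TG.

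Microglia had lower levels of nearly the whole chain than astrocytes. The 10 astrocyte markers summed to 453 to 672 CPM in microglia and 24289 to 28171 in astrocytes. Of 83 members tested (edgeR quasi-likelihood test with library as a block, Benjamini-Hochberg adjustment over 8227 genes), 78 were lower and 1 higher, and the median log2 difference was -1.45 against 0.02 over all genes tested. In this comparison 62.4% of all genes tested were called, 30.3% lower and 32.1% higher. The filter on low counts ran over all 5 types together, so a gene could pass through a type where it is high. Among the 79 members that also passed it within microglia and within astrocytes, 76 were lower and 1 higher, against 30.1% and 29.0% of 4193 genes. The 11 members that did not pass the filter on low counts were the isoforms *Cox6a2*, *Cox6b2*, *Cox7a1*, *Cox7b2* and *Cox8b*, the subunit gene *Atp5g2*, and *Atp5s*, *Atp5sl*, *Ndufaf1*, *Ndufaf5* and *Ndufaf6*. Of all 83 tested members, 77 were lower in microglia within each of the 4 libraries, and the same count over all genes was not made. The median was -1.37 for complex I (38 of 41 lower), -1.22 for complex II (4 of 4), -1.56 for complex III (9 of 9), -1.45 for complex IV (12 of 14) and -1.44 for complex V (14 of 14). These counts by complex cover all tested members. They include *Ndufaf8*, *Cox4i2* and *Ndufa4l2*, which did not pass the filter within both types. The share of the members' UMIs that each complex took was like that in astrocytes, for example 38.0% against 39.1% for complex I and 25.2% against 23.4% for complex IV.

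*Ndufs5*, an accessory subunit of complex I, had 38.8, 27.4, 33.5 and 31.7 CPM in microglia of the 4 libraries (female WT, female TG, male WT, male TG) and 173, 208, 214 and 239 in astrocytes. The groups did not overlap, and the log2 difference was -2.65 (SE 0.22, edgeR adjusted p = 2.1e-27). *Uqcrfs1*, the Rieske iron-sulfur protein of complex III, had 26.9, 44.5, 48.5 and 48.3 in microglia and 202, 202, 254 and 258 in astrocytes, a log2 difference of -2.46 (SE 0.21, edgeR adjusted p = 7.0e-26). *Cox4i2*, with 2 UMIs in microglia and 10 in astrocytes, is among the 78 only because its counts in mural cells took it past the filter. The exception was *Cox7a2l*, which helps complexes III and IV join into supercomplexes. It had 149, 128, 147 and 198 CPM in microglia and 41.0, 67.5, 63.6 and 90.1 in astrocytes, and was higher in microglia by 1.25 on the log2 scale (SE 0.21, edgeR adjusted p = 3.8e-08). The most even members, named here after their values were seen, included *Ndufa9*, an accessory subunit of complex I. It had 35.1 CPM in microglia, 46.0 in astrocytes, 43.1 in oligodendrocytes, 40.9 in endothelial cells and 50.8 in mural cells. *Ndufaf7*, an assembly factor that methylates a core subunit, had 53.1 in both microglia and astrocytes.

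**Figure D2:**
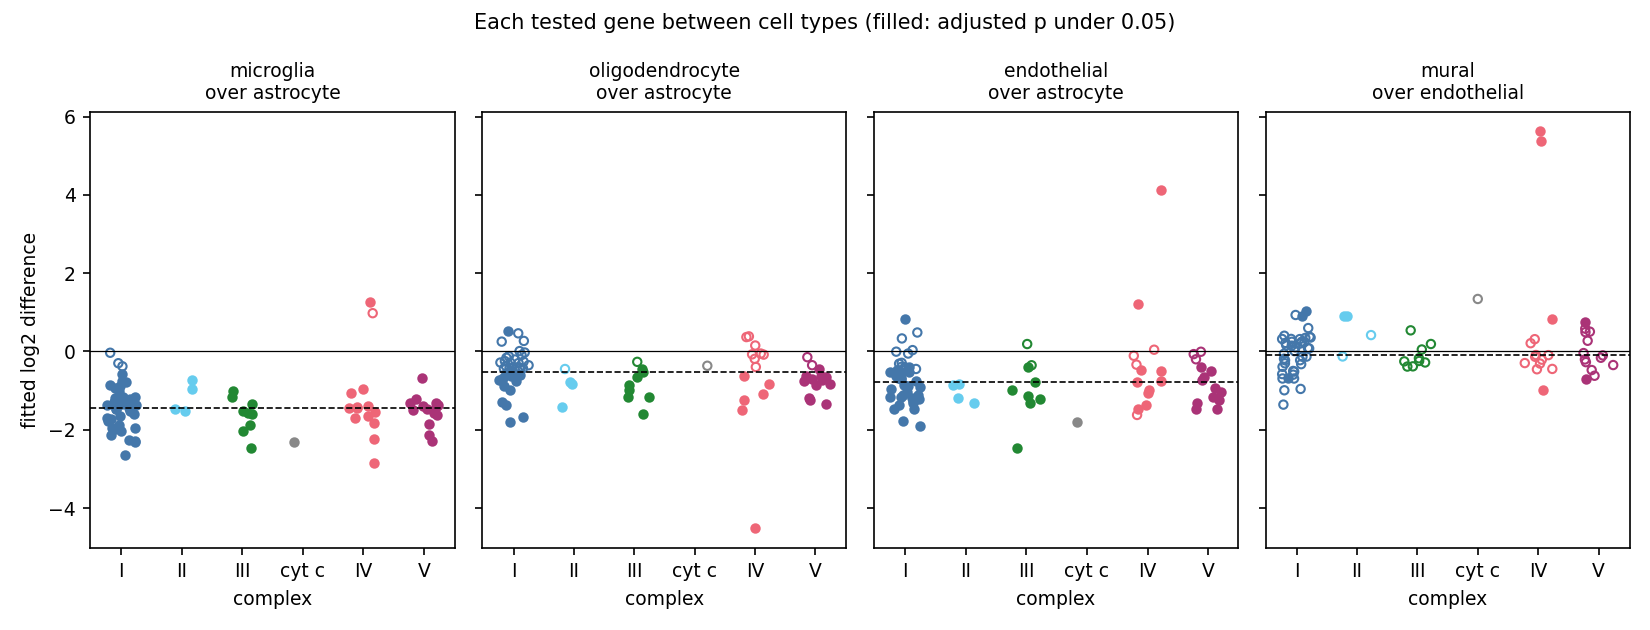
Fitted log2 difference of each tested member between cell types (vertical axis), by complex (horizontal axis). Filled points passed adjusted p under 0.05 in edgeR, the dashed line is the members' median (-1.45, -0.53, -0.78 and -0.09 from left to right). *Cox7a2l* is the filled point above 0 in the first panel, and *Cox4i2* and *Ndufa4l2* are the 2 high points in the last. The fitted values of *Cox4i2* in oligodendrocytes and of *Ndufa4l2* in endothelial cells over astrocytes rest on a type with 0 UMIs and depend on the prior count.

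Oligodendrocytes, which make myelin, were lower than astrocytes in 46 of 83 members and higher in 1 (median log2 difference -0.53 against -0.05 over all genes). Over all genes 38.9% were called, 21.2% lower and 17.6% higher. Among the 73 members that passed the filter within both types, 43 were lower and 1 higher, against 14.2% and 29.2% of 2636 genes. By complex, over all 83 tested members, 17 of 41 were lower in complex I (median -0.43) and 3 of 4 in II (-0.82). In complex III 8 of 9 were lower (-0.85), in IV 6 of 14 (-0.29) and in V 12 of 14 (-0.71). The tested members of complexes I and II include *Ndufa9*, *Ndufaf3*, *Ndufaf4*, *Ndufaf7*, *Ndufs3* and *Sdhd*, which passed the filter within astrocytes but not within oligodendrocytes. *Ndufaf8*, *Cox4i2* and *Ndufa4l2* passed it within neither type. Counts by complex without such members were not made, and the complexes were not tested against each other. *Ndufa12*, an accessory subunit of complex I, had 119, 146, 81.1 and 143 CPM in oligodendrocytes and 384, 296, 375 and 463 in astrocytes (log2 difference -1.68, SE 0.20, edgeR adjusted p = 5.1e-14). *Ndufaf4*, an assembly factor, had 42.2, 23.3, 43.7 and 28.5 against 145, 98.6, 93.7 and 124, and since it passed the filter within astrocytes but not within oligodendrocytes no test is given. The higher gene was *Ndufa3*, an accessory subunit, with 288, 326, 418 and 423 CPM against 167, 311, 248 and 277. It differed by 0.52 (SE 0.17, edgeR adjusted p = 0.0099), the ranges over libraries overlapped, and the call was lost without the female WT (log2 difference 0.46), male WT (0.38) or male TG (0.40) library. *Cox4i2* had 0 UMIs in oligodendrocytes and 8.85 CPM in astrocytes, which makes it at least 1.92-fold lower against a floor of 3 UMIs over the 4 libraries. It passed the filter within neither type and is among the 46 only through its counts in mural cells.

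Endothelial cells were lower than astrocytes in 60 of 83 members and higher in 3 (median -0.78 against 0.02 over all genes, of which 54.4% were called, 26.9% lower and 27.6% higher). Among the 79 members that passed the filter within both types, 59 were lower and 2 higher, against 23.6% and 25.8% of 3814 genes. *Uqcrfs1* was at 35.5, 36.1, 60.8 and 63.6 CPM in endothelial cells, a log2 difference of -2.46 (SE 0.23, edgeR adjusted p = 3.5e-22), and *Ndufa12* was at 110, 106, 105 and 154 (-1.90, SE 0.18, edgeR adjusted p = 4.9e-22). *Cycs* had 16 UMIs against 45 and passed the filter within astrocytes but not within endothelial cells, so no test is given. Of the 3 higher genes, *Ndufa7*, an accessory subunit of complex I, had 363, 339, 389 and 533 CPM in endothelial cells against 142, 166, 248 and 230 in astrocytes (0.84, SE 0.16, edgeR adjusted p = 2.2e-06). *Cox7a2l* had 193, 187, 159 and 154 in endothelial cells and was higher by 1.21 (SE 0.23, edgeR adjusted p = 5.8e-07). It was thus above astrocytes in both microglia and endothelial cells. *Ndufa4l2* had 11 UMIs in endothelial cells and 0 in astrocytes, at least 3.20-fold higher against the floor of 3 UMIs over the 4 astrocyte libraries. It passed the filter within neither type and is among the 3 only through its counts in mural cells. The mural markers summed to 727 to 821 CPM in endothelial cells and 63.0 to 97.1 in astrocytes. The part of RNA shared with mural cells was not tested.

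Mural cells were set beside endothelial cells, their neighbours in the vessel wall. The 9 endothelial markers summed to 3976 to 10644 CPM in mural cells and 19908 to 24530 in endothelial cells, and the 10 mural markers to 727 to 821 in endothelial cells and 11775 to 18924 in mural cells. The part of shared RNA or mixed cells in this comparison was not tested. Of 83 members 8 were higher and 3 lower, against 6.86% and 8.92% of all genes (15.8% in either direction), with a median of -0.09 against -0.22 over all genes. Among the 52 members that passed the filter within both types, 6 were higher and 3 lower, against 10.3% and 18.9% of 1393 genes. The higher calls were thus near the share over all genes. The split depended on scaling. With RLE factors in place of TMM, which moved the median of all genes to -0.03, 13 members were higher and 1 lower and their median was 0.11, and DESeq2 called 11 higher and 1 lower. The members with the largest differences were 2 alternative isoforms of complex IV. Both passed the filter within mural cells but not within endothelial cells, so their values are given without a test. *Cox4i2*, an isoform of *Cox4i1* known from oxygen-sensing cells, had 81.8, 178, 244 and 277 CPM in mural cells (52 UMIs in all) and 0 to 4.81 in endothelial cells (4 UMIs). That is 65.9-fold higher on the summed counts (exact interval 24.2 to 251). *Ndufa4l2*, a hypoxia-induced relative of *Ndufa4*, had 196, 511, 352 and 568 in mural cells and 2.40 to 12.0 in endothelial cells, 47.9-fold higher (exact interval 25.7 to 98.9). In the same mural cells *Ndufa4* had 147, 155, 217 and 145 CPM against 197, 288, 280 and 376 in endothelial cells (log2 difference -0.99, SE 0.25, edgeR adjusted p = 0.0015, and -0.71 with an adjusted p of 0.122 without the male TG library). *Ndufa4l2* was therefore above *Ndufa4* in mural cells of all 4 libraries, whereas *Cox4i1*, at 327, 378, 569 and 726, stayed above *Cox4i2*. The other higher members were *Ndufs7*, an iron-sulfur core subunit of complex I (1.04, SE 0.29), *Ndufa13*, *Atp5b*, *Cox8a*, *Sdha* and *Sdhc*, and the other lower ones were *Atp5j2* (-0.70, SE 0.25) and *Ndufa7* (-0.69, SE 0.21), all with edgeR adjusted p of 3.3e-04 to 0.039. The call of *Ndufs7* was lost without the male WT library (0.82), that of *Ndufa7* without the female WT, female TG or male TG library (-0.62, -0.63 and -0.52), and that of *Atp5j2* without any 1 of the 4 libraries (-0.72 to -0.63). Fits without 1 library are not given here for *Ndufa13*, *Atp5b*, *Cox8a*, *Sdha* and *Sdhc*.

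**Figure D3:**
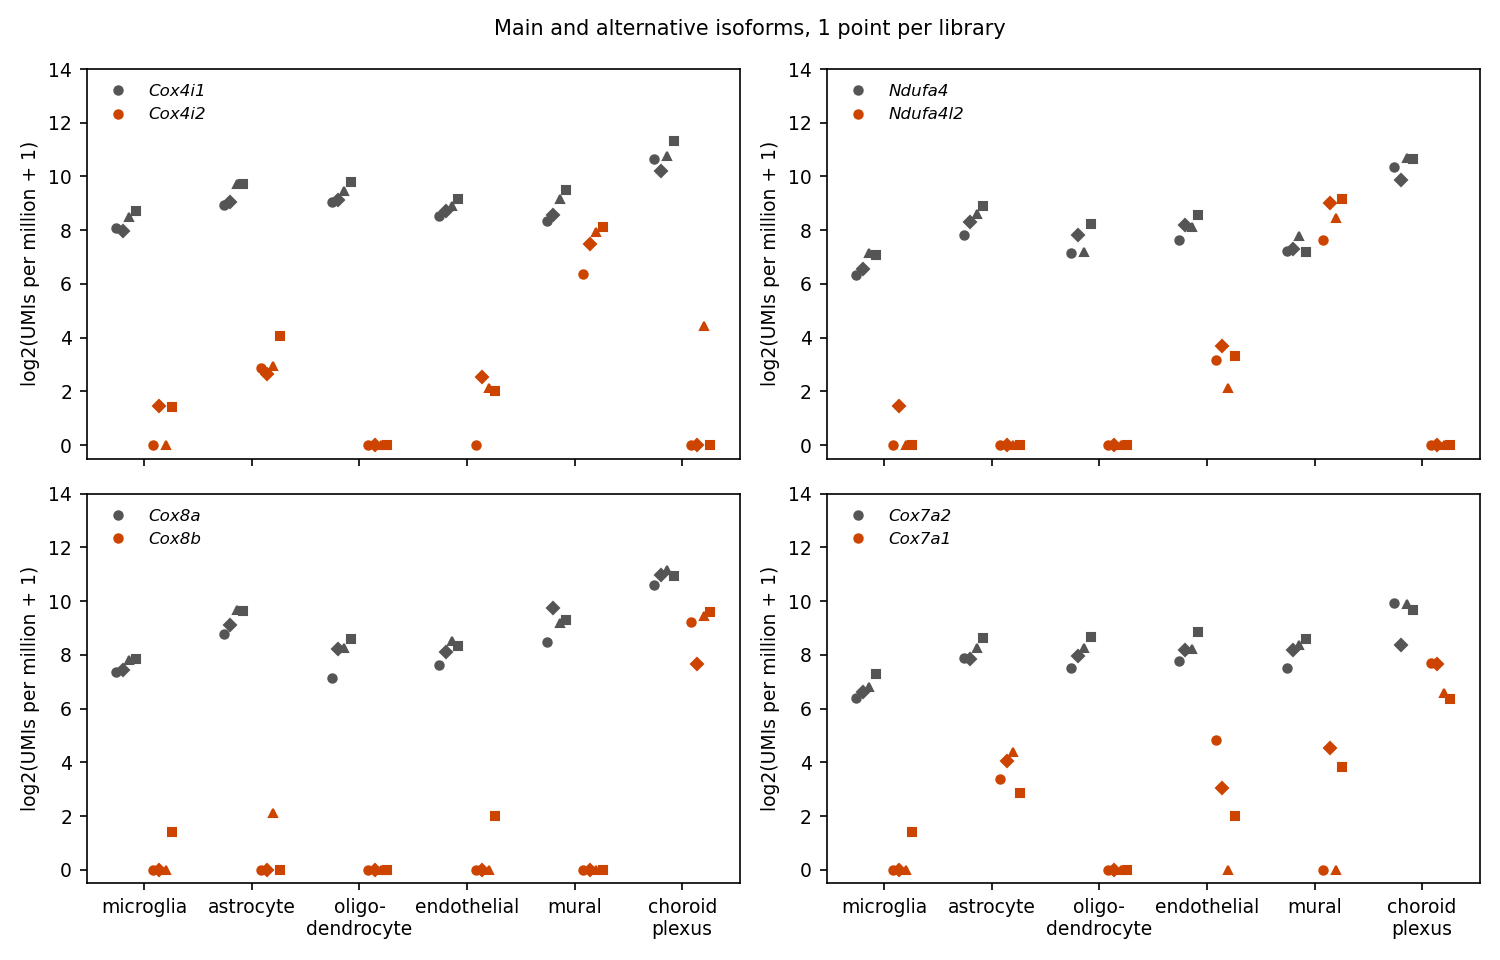
Level of 4 common subunits (grey) and their alternative isoforms (orange) as log2(CPM + 1) by cell type. Each point is a library (circle female WT, diamond female TG, triangle male WT, square male TG), and points at 0 have no UMI. *Cox4i2* and *Ndufa4l2* are high in mural cells, *Cox8b* and *Cox7a1* in choroid plexus cells.

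Other alternative isoforms were found in choroid plexus cells, where no test was run because 2 libraries held 12 and 15 cells. *Cox8b*, a complex IV isoform known from heart, muscle and brown fat, had 588, 199, 689 and 769 CPM there, from 133 UMIs. Astrocytes held 1 UMI of it, and mural cells, oligodendrocytes, OPC and neurons held none. *Cox8a* in the same cells was at 1557, 1988, 2297 and 1932, so *Cox8b* was lower than *Cox8a* in all 4 libraries. *Cox6b2*, known from testis, had 311, 199, 209 and 262 (10.8-fold above astrocytes, exact interval 6.53 to 18.3), beside 1038, 1193, 1159 and 851 for *Cox6b1*. *Cox7a1*, a muscle isoform, had 208, 199, 93.98 and 81.9 (9.25-fold above astrocytes, exact interval 4.56 to 19.4). Of the *Atp5g* genes, which encode the same mature ring subunit of complex V, *Atp5g1* was at 934, 994, 1274 and 966 and *Atp5g3* at 969, 530, 1034 and 950 in choroid plexus cells. In astrocytes *Atp5g1* was at 53.6, 77.8, 87.1 and 146 and *Atp5g3* at 315, 379, 398 and 420, so *Atp5g1* was the lower of the pair in all 4 libraries, whereas in choroid plexus it was the higher in 3 of 4. *Atp5g2* had 0 UMIs in choroid plexus cells and 13 in astrocytes. *Cox6a2*, a muscle isoform, had 10 UMIs in microglia and 2 in all other named types, beside 163, 174, 222 and 215 CPM of *Cox6a1* in microglia, and *Cox7b2* was at 1.06 CPM over all cells.

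Related gene lists were counted in the same tests. Their genes that passed the filter within both types were not counted apart, so a gene could enter through a type where it is high. In microglia against astrocytes, where 30.3% of all genes were lower and 32.1% higher, 9 of 13 genes of the tricarboxylic acid cycle, which feeds electrons to the chain, were lower (median -1.62), as were 11 of 14 tested glycolysis genes with 1 higher (-2.19) and 5 of 6 adenine nucleotide and porin carriers (-1.08). Of the chain subunits encoded by mitochondrial DNA, 6 of 7 tested were lower (-0.80), and of assembly factors outside the rule 13 of 21 (-0.97). Of 7 regulators of mitochondrial gene expression, 2 were higher and 1 lower, which is not above the share over all genes in either direction. Cytosolic ribosomal protein genes, a list added after values had been seen, went the other way, with 52 of 59 higher in microglia and none lower (median 1.30) and 53 of 59 higher in endothelial cells (1.36), where 27.6% of all genes were higher. In oligodendrocytes, against 21.2% of all genes lower and 17.6% higher, 13 of 14 glycolysis genes (median -2.23) and 10 of 13 cycle genes (-1.15) were lower. Only 5 glycolysis and 6 cycle genes passed the filter within oligodendrocytes, against 13 and 13 within astrocytes. The others entered through another type, so these medians are not set against that of the members. The mitochondrially encoded subunits had a median of 0.12, and their 2 higher and 1 lower of 7 are near the shares over all genes. In mural against endothelial cells, *Slc25a4* and *Slc25a5*, the adenine nucleotide carriers that move ATP out of mitochondria, were higher.

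The female libraries had lower summed levels of the members than the male libraries of the same genotype in all 5 tested types, although few single genes passed the test. The sex difference was fitted over the 4 libraries in a model that also held genotype. Only 1 degree of freedom then remained for the spread, so the tests lean on a spread shared across genes. The median log2 difference, female over male, was -0.28 in microglia (69 of 81 tested members negative), -0.28 in astrocytes (69 of 80), -0.29 in oligodendrocytes (57 of 73), -0.27 in endothelial cells (68 of 80) and -0.33 in mural cells (41 of 54). The medians over all genes lay between -0.01 and 0.00. Fits without 1 library have no room for the genotype term, so both change together. In the same order of types the medians were then -0.20, -0.27, -0.20, -0.13 and -0.16 without female WT, and -0.31, -0.34, -0.35, -0.39 and -0.56 without female TG. They were -0.28, -0.33, -0.35, -0.32 and -0.44 without male WT, and -0.17, -0.26, -0.11, -0.14 and -0.35 without male TG. The sign held in each, whereas the size moved by more than 1.5 times in microglia and oligodendrocytes without male TG, in endothelial cells without female WT or male TG, and in mural cells without female WT or female TG. In astrocytes 3 members were called lower and none higher, against 2.13% of all genes called, 1.02% lower and 1.11% higher. Among the other types, 0 members were called in microglia, oligodendrocytes, endothelial cells and mural cells, against 3.58%, 2.76%, 0.162% and 0.671% of all genes. At an unadjusted p under 0.05 there were 14 of 81, 10 of 73, 11 of 80 and 2 of 54 members in these types. Of all genes, 1388 of 7507, 477 of 3085, 537 of 5544 and 143 of 1491 were under that threshold. DESeq2 called 0 members in each.

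The 3 genes called in astrocytes encode subunits of complex IV. *Cox4i1* had 495, 524, 834 and 848 CPM in the female WT, female TG, male WT and male TG libraries, so the sexes did not overlap (log2 difference -0.61, SE 0.14, edgeR adjusted p = 0.017). *Cox8a* had 438, 550, 817 and 783 (-0.60, SE 0.15, edgeR adjusted p = 0.025). *Cox5a* had 239, 171, 321 and 457 (-0.74, SE 0.21, edgeR adjusted p = 0.049). All 3 remained lower in females when any 1 of the 4 libraries was left out, between -0.44 and -1.08 over genes and libraries, but no member was then called. Those fits also lack the genotype term, and 0 members were called without that term when all 4 libraries were kept, so the part of the left-out library cannot be told apart. No member was called with a mitochondrial limit of 10%, with at least 500 genes per cell or by DESeq2, and 11 were called with no mitochondrial limit. By complex, the astrocyte medians were -0.50 for complex IV, -0.41 for III, -0.31 for II, -0.25 for V and -0.15 for I. In microglia *Cox4i1* was at 273, 251, 356 and 418 CPM and missed the threshold (-0.54, SE 0.15, edgeR adjusted p = 0.0502). Of members with at least 30 UMIs per sex, 61 of 75 in astrocytes and 53 of 78 in microglia were lower in females of both genotypes, and 0 and 4 were higher in both. The same counts over all genes were not made.

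**Figure D4:**
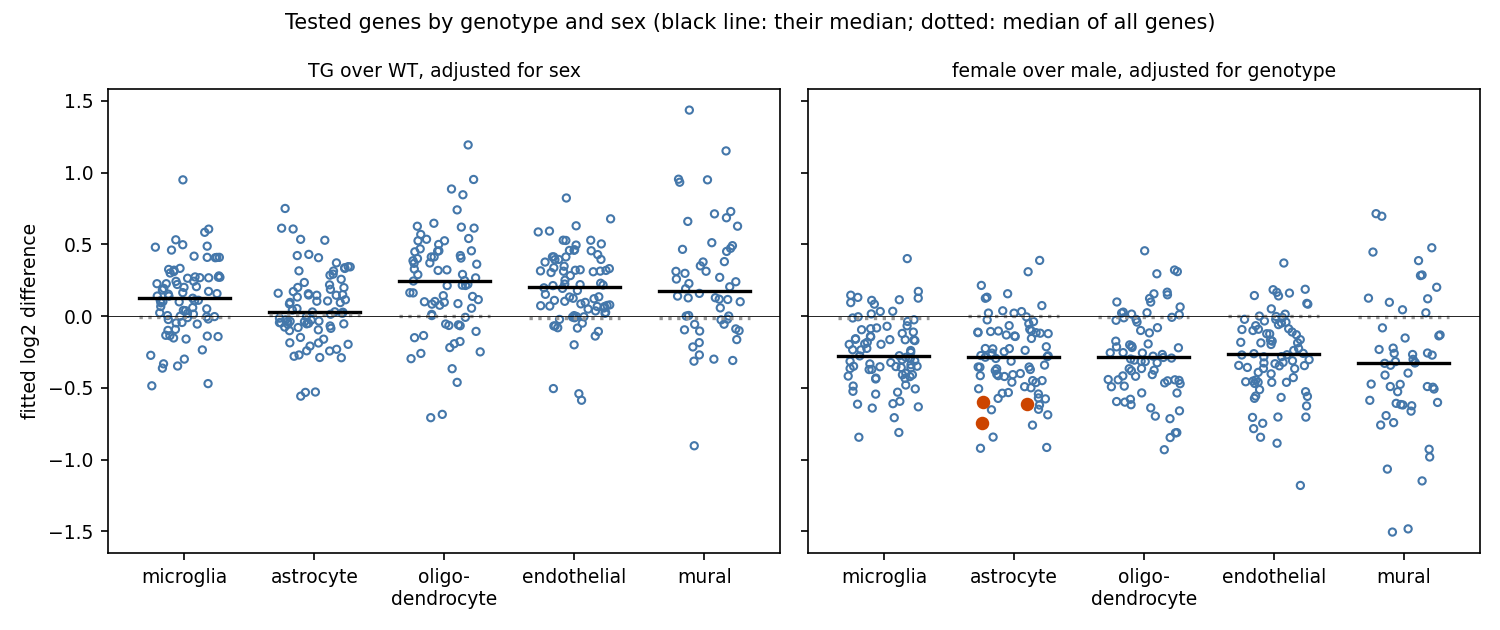
Fitted log2 difference of each tested member (vertical axis) by cell type, TG over WT on the left and female over male on the right. Filled points passed adjusted p under 0.05 in edgeR, black lines are the members' medians and dotted lines the medians of all genes. The members' medians lie between 0.03 and 0.24 on the left and between -0.33 and -0.27 on the right.

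Summed over members, females were below males within each genotype. In microglia the log2 ratio was -0.33 (interval -0.40 to -0.27) in WT and -0.25 (-0.31 to -0.18) in TG, and in astrocytes -0.39 (-0.45 to -0.34) and -0.47 (-0.52 to -0.41). In oligodendrocytes it was -0.31 and -0.43, in endothelial cells -0.35 and -0.36, and in mural cells -0.56 and -0.36, all with intervals below 0. Within the larger microglia cluster the log2 ratio was -0.40 in WT and -0.33 in TG, and within the smaller -0.31 and -0.32, with every interval below 0. Other RNA moved with sex as well. The mRNAs of mitochondrially encoded subunits were lower in females, by a log2 ratio of -0.85 in WT and -0.95 in TG astrocytes, and in the edgeR test 6 of 7 were lower in astrocytes and 4 of 7 in microglia. Mitochondrial ribosomal RNA was higher in females by 0.61 and 1.23 in the same cells. Cytosolic ribosomal protein genes were lower, at medians of -0.25 in astrocytes and -0.42 in microglia, with 0 of 53 and 8 of 69 called. The part of these shifts in the members' difference was not tested, and sex and library cannot be told apart. With totals that leave out mitochondrial genes and *Malat1*, the log2 ratios were -0.28 and -0.16 in microglia and -0.30 and -0.32 in astrocytes, with every interval below 0.

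Cells were also binned by mitochondrial share, and the part of this share in the sex difference was not tested. In microglia with 5 to 10% mitochondrial UMIs the summed level was 6142 (female WT), 6852 (female TG), 7604 (male WT) and 8129 (male TG) CPM. In those with up to 5% it was 5514, 6389, 7237 and 7864. In those with 10 to 20% it was 5640, 7118 and 7157 in female WT, female TG and male WT. The last 2 had overlapping intervals, and male TG had under 20 cells. Astrocytes with 5 to 10% had 16671, 17576, 21827 and 22800, and those with 10 to 20% had 15496, 16682, 19842 and 21201. In these astrocyte bins both female libraries were below both male ones. In endothelial cells with 5 to 10% the values were 11215, 13561, 13358 and 15817. In those with 10 to 20% they were 9794, 12266, 12001 and 12727, and the TG libraries of the 2 sexes had overlapping intervals. Female TG was above male WT in both of these endothelial bins, with overlapping intervals. Across endothelial cells the member share fell as the mitochondrial share rose, with Spearman correlations of -0.33 to -0.18 over cells of 1 library (150 to 310 cells that share a library), and in microglia they were -0.01 to 0.14.

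**Figure D5:**
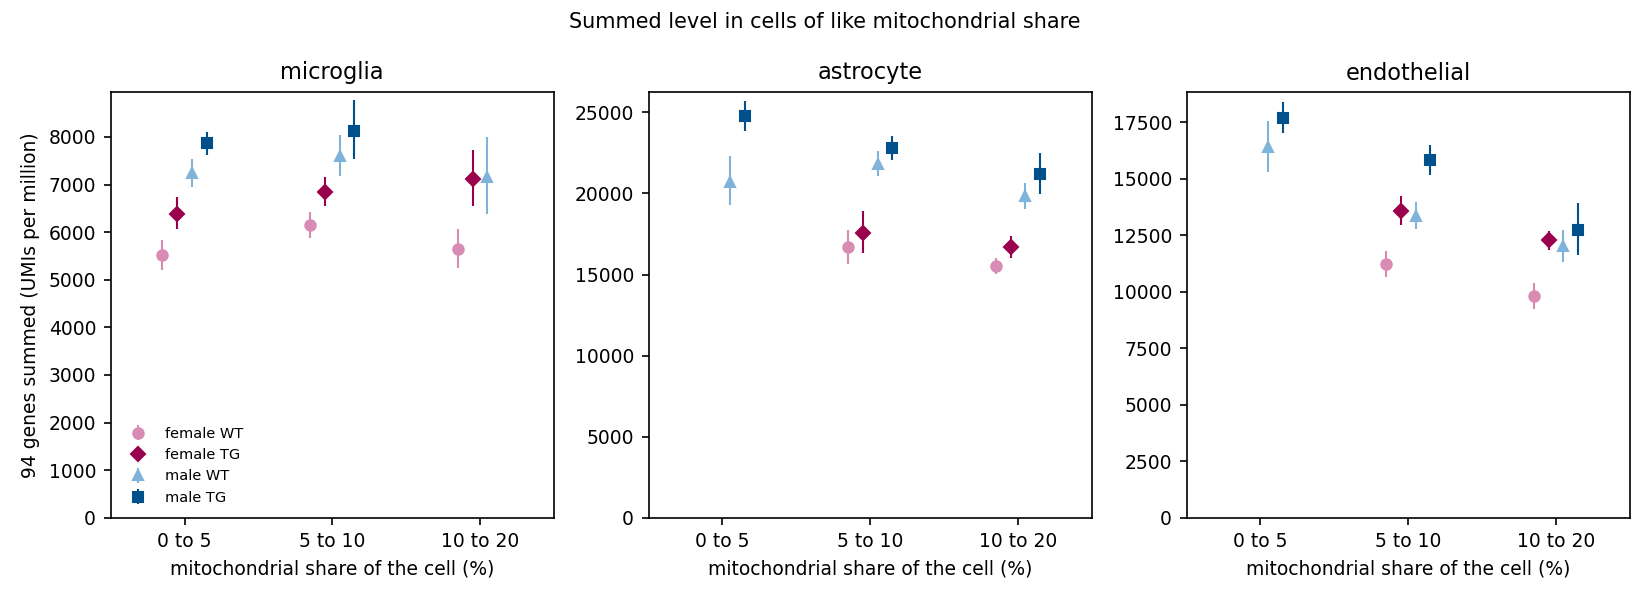
Summed member level (CPM, vertical axis from 0) of cells binned by mitochondrial share (horizontal axis), 1 point per library with exact 95% Poisson intervals. Bins with under 20 cells are left out. Female WT is lowest in every bin that holds it.

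Over all cells of each of the 5 tested types, TG cells had higher summed levels than WT cells of the same sex beyond counting error, and no single member passed the test for genotype. In microglia the log2 ratio TG over WT was 0.20 (interval 0.14 to 0.27) in females and 0.12 (0.06 to 0.18) in males. The 2 microglia clusters differed in level and in their mix. The larger, led by immune genes, held 273, 192, 246 and 359 cells in the female WT, female TG, male WT and male TG libraries, at 5293, 6069, 7007 and 7614 CPM, and the smaller 186, 323, 103 and 179 cells at 6837, 7193, 8479 and 8960. Within the larger the ratio was 0.20 (0.10 to 0.29) in females and 0.12 (0.05 to 0.19) in males. Within the smaller it was 0.07 (-0.02 to 0.17) and 0.08 (-0.04 to 0.20), so those intervals included 0. In endothelial cells it was 0.28 (0.21 to 0.35) and 0.28 (0.22 to 0.34), in oligodendrocytes 0.17 (0.08 to 0.27) and 0.29 (0.21 to 0.37), and in mural cells 0.37 (0.22 to 0.52) and 0.17 (0.06 to 0.28). In astrocytes it was 0.08 (0.01 to 0.14) in females and 0.15 (0.10 to 0.20) in males, and the value of the females turned to -0.01 with a mitochondrial limit of 10% and to -0.04 with none. With 1 library per sex and genotype these ratios have no replicate check. In choroid plexus cells the ratio was -0.21 (-0.35 to -0.07) in females and -0.02 (-0.09 to 0.05) in males. The summed mRNAs of mitochondrially encoded subunits had log2 ratios TG over WT of 0.30 in female and 0.40 in male astrocytes, and mitochondrial ribosomal RNA differed by 0.02 and -0.60 there. Their part in the members' ratio was not tested.

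In the fit over both sexes, 0 members were called for genotype in microglia, astrocytes, oligodendrocytes, endothelial cells or mural cells, by edgeR or DESeq2. Of all genes 0.0133%, 0.113%, 0.324%, 0% and 0.268% were called. At an unadjusted p under 0.05 there were 7 of 81, 4 of 80, 6 of 73, 5 of 80 and 4 of 54 members. Of all genes, 631 of 7507, 408 of 5307, 221 of 3085, 282 of 5544 and 79 of 1491 were under that threshold. The medians were 0.12, 0.03, 0.24, 0.20 and 0.17 against -0.01 to 0.01 over all genes, and 56, 44, 55, 64 and 38 of the tested members were positive. These medians depended on single libraries. Fits without 1 library have no sex term and leave the sexes unequal between genotypes, so the part of the library cannot be told apart from that of sex. In the same order of types the medians were then 0.03, -0.06, 0.15, 0.09 and 0.02 without female WT, and 0.22, 0.20, 0.34, 0.32 and 0.34 without female TG. They were 0.23, 0.24, 0.35, 0.35 and 0.54 without male WT, and -0.02, -0.17, 0.10, 0.12 and 0.02 without male TG, where 38 of 81 members were positive in microglia and 28 of 83 in astrocytes. In endothelial cells the median was highest for complex V (0.37, 12 of 14 positive) and in oligodendrocytes for complex III (0.39, 7 of 9).

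Single members are given by the size of the change in both sexes, without a test within a sex. *Cox5b*, a complex IV subunit, had 53.7 and 80.1 CPM in WT microglia (female, male) and 85.5 and 122 in TG microglia, a log2 ratio of 0.67 (interval 0.02 to 1.33) and 0.60 (0.04 to 1.18). *Ndufs8*, an iron-sulfur core subunit of complex I, had 78.8 and 104 in WT astrocytes and 156 and 165 in TG astrocytes (log2 ratio 0.98, interval 0.17 to 1.81, and 0.67, interval 0.00025 to 1.35). In both genes the intervals stayed above 0 in the 2 sexes, while the fit over both gave edgeR adjusted p of 0.48 and 0.49. The same held for 3 other members with at least 30 UMIs per sex, named after their values were seen. These were *Atp5j* (0.57 in females, 0.37 in males) and *Ndufa4* (0.55 and 0.42) in endothelial cells and *Atp5c1* in mural cells (1.76 and 0.77), with edgeR adjusted p of 0.91, 0.91 and 0.61 in the fit over both sexes. Intervals lay above 0 in both sexes for 1 of 78 members in microglia, 1 of 75 in astrocytes and 0 of 55 in oligodendrocytes. They did for 2 of 74 in endothelial cells and 1 of 13 in mural cells, and the share over all genes was not counted. In oligodendrocytes *Ndufa4* had 141 and 143 in WT and 227 and 303 in TG cells (edgeR adjusted p = 0.30), and *Ndufb8*, an accessory subunit, had 49.2 and 168 in WT and 163 and 257 in TG cells (edgeR adjusted p = 0.30). In endothelial cells *Cyc1*, the heme protein of complex III, had 35.5 and 64.2 in WT and 62.5 and 124 in TG cells, and the core protein *Uqcrc1* had 63.1 and 60.8 against 108 and 99.95, with intervals of the ratio that included 0 for *Cyc1* in females and for *Uqcrc1* in both sexes. The next such increases were of *Ndufa8* in microglia (0.50 in females, 0.67 in males) and *Atp5g1* in astrocytes (0.54 and 0.75). Among decreases shared by both sexes no interval lay below 0 in both. They included *Ndufa11* in microglia (-0.62 in females, -0.32 in males), *Ndufaf2* in astrocytes (-0.55 and -0.48), *Ndufaf8* in endothelial cells (-0.33 and -0.63) and *Ndufc1* and *Ndufa10* in oligodendrocytes (-0.37 and -0.52, -0.89 and -0.53).

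The sign of TG over WT was opposite in the sexes for 29 of 78 members with at least 30 UMIs per sex in microglia, 37 of 75 in astrocytes, 21 of 55 in oligodendrocytes, 27 of 74 in endothelial cells and 4 of 13 in mural cells. The shares of all genes with opposite signs or opposite intervals were not counted. In endothelial cells *Cox6b1*, a complex IV subunit that faces the intermembrane space, had 252 CPM in female WT, 370 in female TG, 433 in male WT and 330 in male TG. It was the only member with at least 30 UMIs per sex whose counting intervals lay on opposite sides of 0 in a tested type. *Ndufb2* in endothelial cells went the other way (-0.56 in females, 0.74 in males), and *Cox7c*, a small complex IV subunit, was higher in female TG and lower in male TG cells in both microglia (0.45 and -0.50) and endothelial cells (0.56 and -0.54), with intervals that included 0 for *Cox7c* in each. *Ndufs1*, the largest subunit of complex I, had 0.80 in females and -0.95 in males in astrocytes. Whether genotype acts differently in the sexes could not be tested with 1 library per group.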

How the data were processed

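Single-cell suspensions of cortex were profiled by Drop-seq in 4 libraries, each a pool of 9 mice. The authors deposited raw counts of UMIs per gene and barcode, 3000 barcodes per library. The submitters' processing notes name build mm10 and Seurat 3.1.4, and the aligner is not given in the sources used here. Cells with 200 to 7000 genes and at most 20% mitochondrial UMIs were kept, which left 4835 of 12000 barcodes. A stricter limit of 5% was an alternative. Doublets (92 called) were kept in the main analysis. Cells were clustered in Seurat 5.3.0 (19 components, resolution 0.5) and named from marker lists. Of 2500 variable genes, 2475 were used for this. Left out were members and their pseudogene rows, mitochondrial genes, *Xist*, *Tsix*, Y-linked genes, *App* and *Prnp*, where they were among the variable genes. For each cell type the UMIs of a library's cells were added up, and these sums were tested with edgeR 4.0.16 (TMM, filterByExpr, Benjamini-Hochberg, threshold 0.05), with DESeq2 1.42.0, other scalings, filters, clusterings and left-out libraries as alternatives. The tests were checked on simulated data. Each group is 1 pool, so the p-values for sex and genotype do not measure a spread between libraries of a group. They rest on 1 residual degree of freedom and on a spread shared across genes. The p-values between cell types measure the spread over the 4 libraries that is left once type and library are fitted. Ratios have exact conditional binomial and levels exact Poisson 95% intervals. Unmapped sample columns numbered 0. The members and lists were chosen with earlier results of these data known. Named were the 2 most abundant members per complex, isoform pairs, the 3 largest called differences per direction between cell types, every member called for sex or genotype, the 2 largest shared or opposite genotype changes among members with 30 UMIs per sex, and those with opposite intervals. Other members are named where a count of calls is spelled out.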

Additional observations from a re-analysis of the deposited data

Results flagged for a closer look

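In endothelial cells *Cox6b1* moved in opposite directions in the sexes. The log2 ratio TG over WT was 0.55 in females (interval 0.12 to 1.00) and -0.39 in males (interval -0.77 to -0.01), so the counting intervals lay on opposite sides of 0. The difference between the sexes was not tested, because each sex and genotype is 1 library. How many of all genes had such intervals was not counted. The endothelial cluster led by interferon-induced GTPases held 0, 40, 18 and 1 cells in the female WT, female TG, male WT and male TG libraries. In the other endothelial cluster alone, the summed log2 ratio TG over WT was 0.28 (0.21 to 0.35) in females and 0.26 (0.19 to 0.32) in males. Female over male it was -0.38 in WT and -0.35 in TG. The part of the interferon cluster in the ratios of *Cox6b1* was not tested. Rows that the rule leaves out as pseudogenes also held UMIs over all barcodes, above the limit of 3 that a count of 0 allows. *Uqcrh-ps2* had 949, *Uqcrh-ps1* 448, *Atp5k-ps2* 340, *Ndufab1-ps* 328, *Atp5l-ps2* 33 and *Atp5l2-ps* 10.0. With 1 library per group, no group was large enough to look for a library far from the others.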

How the results depend on the processing

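Of the summed levels, summed ratios and counts of called members recomputed under other settings, 337 stayed within the spread or count limit set for them, 24 moved and 2 changed sign. The summed log2 ratio TG over WT of female astrocytes was 0.08 and became -0.00646 with a mitochondrial limit of 10% and -0.0422 with none. That of male astrocytes was 0.15 and became 0.205 with at least 500 genes per cell, 0.208 with cells thinned to 500 UMIs and 0.0888 with totals without mitochondrial genes and *Malat1*, under which the median astrocyte level was 22858 CPM. For sex in microglia, where 0 members were called, 1 was called with a mitochondrial limit of 5% or at least 500 genes, 2 without doublets or without mitochondrial genes and *Malat1*, 3 with a limit of 10%, resolution 1, all variable genes or RLE factors, and 4 at resolution 0.06, all lower in females. For sex in astrocytes the 3 calls became 0 with a limit of 10%, with at least 500 genes, by DESeq2 or with no genotype covariate, 0 without any 1 library (fits that also lack the genotype covariate), and 11 with no limit. In oligodendrocytes the count was 0 to 1 when 1 library was left out, with 1 call without female TG. Mural against endothelial cells gave 7 calls with no filter in place of 11. The causes were not tested. At a limit of 5% and at resolution 0.06 endothelial and mural cells did not form separate clusters, and at a limit of 5% astrocytes were too few in some libraries, so these gave no value. No paired analysis of sex or genotype was possible because each group is 1 library and the labels give no shared replicate numbers. The comparisons between cell types were paired by library through the block. Leaving out genotype, or 1 library with no genotype covariate, and totals without mitochondrial genes and *Malat1* in the tests, counts over members that passed the filter within both types compared, and ratios within the 2 microglia clusters were chosen after seeing the data. Depth limits rare members: with 1 residual degree of freedom, changes in single low members could be missed. Other members could be missed as well. In simulated counts with the same spread for all genes, genotype changes of 1 on the log2 scale were often missed. The share recovered was 52.2% in microglia, 20% in astrocytes, 41.9% in oligodendrocytes, 23.9% in endothelial cells and 9.64% in mural cells. For changes of 2 it was 96.7%, 86.4%, 96.6%, 96.7% and 66.2% in the same order.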

Other observations

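Among cells described without a test, female TG neurons had a summed member level of 9335 CPM against 15522 in female WT, a log2 ratio of -0.73 (interval -0.87 to -0.60), whereas male TG neurons were at 17127 against 16338 in male WT, a ratio of 0.07 (-0.04 to 0.18). The neuron cluster held 34, 65, 33 and 74 cells in the female WT, female TG, male WT and male TG libraries. At resolution 1 a cluster named neuroblasts or progenitors (20, 29, 29 and 30 cells) and a neuron cluster (14, 36, 4 and 44 cells) formed instead. The mix thus differed between libraries, and its part in the ratios was not tested. In the same neurons the mRNAs of mitochondrially encoded subunits had ratios of 0.75 in females and 0.82 in males. OPC differed by sex of the library as well, at 7230 and 8529 CPM in the female WT and female TG libraries and 15061 and 11439 in the male WT and male TG libraries, from 8 to 36 cells. Barcodes below 200 genes, which were not kept as cells, had 11058, 9082, 14895 and 14008 CPM of members in the 4 libraries, with both female libraries below both male ones.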
